A study of Drosophila melanogaster with 6 samples.

Results

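Peptidoglycan recognition proteins (PGRPs) were followed in entire 1st instar larvae of the fruit fly Drosophila melanogaster that were mutant for the histone demethylase gene Kdm4A, and in their controls. The family was taken as 9 named genes: PGRP-LA, PGRP-LB, PGRP-LC, PGRP-LE, PGRP-LF, PGRP-SA, PGRP-SB1, PGRP-SC2 and PGRP-SD. Of these, 6 were measured by a probe set whose entry in the platform's probe table names that gene alone, out of 11983 genes measured in this way, and each of the 6 had 1 such probe set. PGRP-LC, PGRP-SA and PGRP-SD were not analysed here. PGRP-SB2, a family gene outside the 9, also had a probe set of its own and is given beside its neighbour PGRP-SB1.

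The mutant larvae carried the allele dKDM4A KG04636 over the deletion ∆dKDM4A. The control larvae, called wild type in the titles, carried precise alleles of dKDM4A, labelled KG06436 and NP0618, over each other. Each genotype had 3 arrays, titled biological replicates 1 to 3, and each array held total RNA of 200 pooled larvae from cultures at 25 °C, collected about 48 after egg laying, a time given without a unit. The values were log2 expression values from Affymetrix arrays, summarised by the authors with RMA. Both groups were whole animals, so fewer cells of a type and less RNA per cell cannot be told apart in any value below.

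Insects recognise bacteria by the peptidoglycan of the bacterial wall, and PGRPs are the proteins that bind it. Some PGRPs are receptors that switch on the Imd or the Toll pathway, which act through NF-kappaB factors on antimicrobial peptide genes. Others are amidases that cut peptidoglycan and so remove the ligand, or inhibitors that hold the receptors back. Genes of the family named L encode longer forms, many of them membrane or intracellular proteins, and genes named S encode short secreted forms. PGRP-LC and PGRP-LE are receptors of the Imd pathway, and PGRP-SA and PGRP-SD act upstream of Toll.

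Several of these genes lie side by side, by the order of protein-coding genes in the RefSeq table of Release 6 of the genome. PGRP-LA, PGRP-LC and PGRP-LF follow each other on chromosome arm 3L. PGRP-SB2 and PGRP-SB1 are neighbours elsewhere on 3L. PGRP-SC2 lies next to PGRP-SC1b on 2R, the arm that also holds Kdm4A. PGRP-LE is on X and PGRP-LB on 3R.

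The arrays were alike in scale, with medians between 5.29 and 5.37 on the log2 scale. Kdm4A had log2 values of 3.44, 3.41 and 3.29 in mutant arrays 1, 2 and 3, against 5.18, 5.26 and 5.46 in control arrays 1, 2 and 3, which fits the labels (difference -1.92, SE 0.10, limma adjusted p = 0.00174). Markers of tissues that a whole larva holds were read as lists. Fat body, hemocyte, midgut, muscle, neuron and trachea lists had mean log2 values of at least 8.40 in the mutant and 8.23 in the control. Of the measured markers 0 averaged below the lower quartile of the arrays, which is not a detection limit. The lowest fat body marker, Fbp1, averaged 3.94 and the lowest hemocyte marker, eater, 4.90, both below the array medians. The gap between the 3′ and the 5′ actin control probe set, which widens as RNA degrades, was 2.39 and 2.34 log2 units in mutant and control arrays numbered 1, and between 1.53 and 1.84 in the other 4 arrays. Nothing in the labels says what a replicate number stands for, but both genotypes carry them. Deviations from the group means correlated between same-numbered arrays at 0.684 for number 1 and 0.756 for number 3. For number 2 the correlation was only 0.151. The members are described by genotype and by number.

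Between the genotypes, PGRP-SB1 was the member with the largest difference, and it was lower in the mutant, by 1.97-fold. PGRP-LF was the only one of the 6 measured members that was higher in the mutant, by 1.34-fold, and the only one whose groups did not overlap. The other 4, PGRP-LA, PGRP-LB, PGRP-LE and PGRP-SC2, had differences between -0.27 and -0.10 on the log2 scale. In the comparison of all 6 arrays without regard to replicate number, limma called 0 of the 6 members at an adjusted p under 0.05, where 0.159% of all genes were called. At an unadjusted p under 0.05 there was 1 member, PGRP-LF, where 5.27% of all genes passed. With the replicate number as a block in the limma fit, 1 member was called, PGRP-SB1, where 0.818% of all genes were called. At an unadjusted p under 0.05 that fit held 2 members, PGRP-SB1 and PGRP-LF, where 11.2% of all genes passed. The median difference of the 6 members was -0.17, and that of all genes was -0.01.

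**Figure D1:**
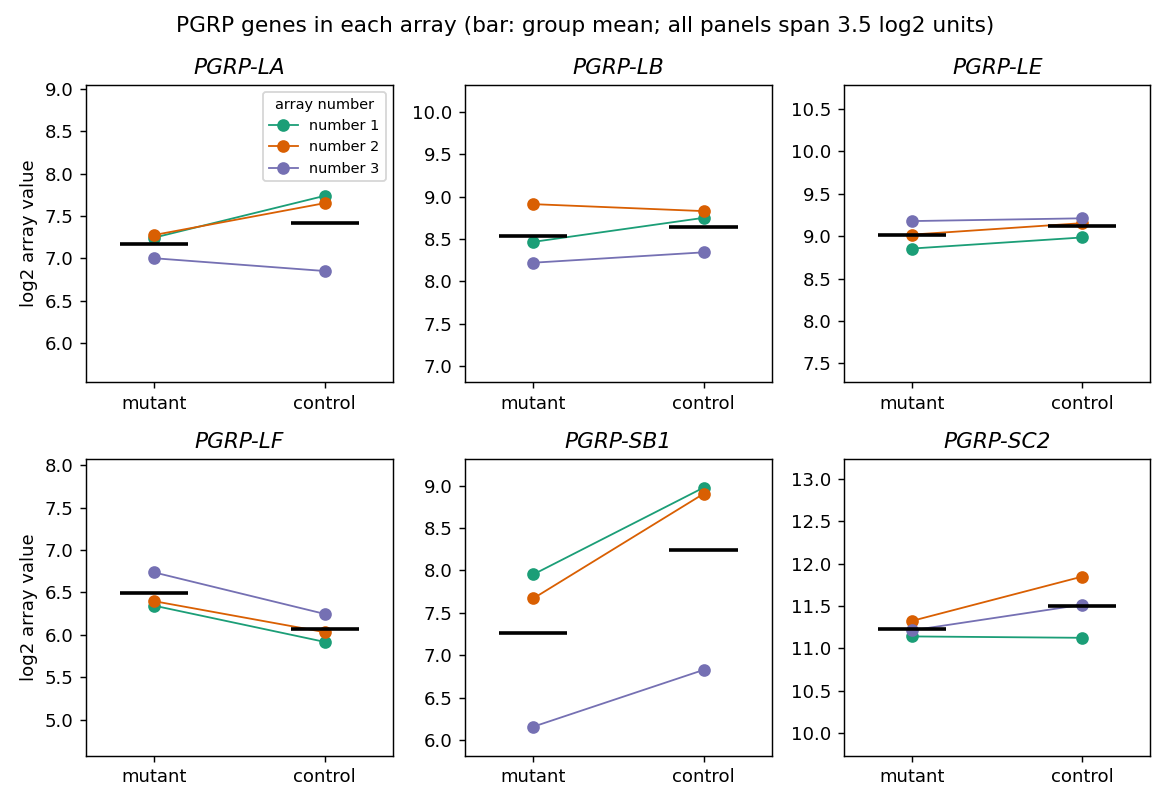
Log2 array value of each measured PGRP gene in every array, mutant left and control right, with a line joining the arrays of 1 replicate number and a black bar at each group mean. PGRP-SB1 has its lowest value of each genotype in the arrays numbered 3 (6.16 in the mutant, 6.83 in the control) and slopes the same way for each number, and PGRP-LF slopes the opposite way.

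PGRP-SB1 encodes a secreted amidase that cuts peptidoglycan of the type found in Gram-negative bacteria. Its log2 values were 7.95, 7.67 and 6.16 in mutant arrays 1, 2 and 3, against 8.98, 8.90 and 6.83 in control arrays 1, 2 and 3. The groups overlapped, because control array 3 lay below mutant arrays 1 and 2, but the mutant array was the lower one for each number. The differences were -1.02, -1.23 and -0.67 for numbers 1, 2 and 3. Of all genes, 19.2% were lower in the mutant for all 3 numbers. The group means were 7.26 ± 0.96 in the mutant and 8.24 ± 1.22 in the control (SD, n = 3 each).

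The error of that difference depended on whether the replicate number was in the fit. Without the block it was -0.97 with an SE of 0.71 and a 95% interval from -2.67 to 0.72 (limma adjusted p = 0.998). With the replicate number as a block it was -0.97 with an SE of 0.13 and an interval from -1.29 to -0.66 (limma adjusted p = 0.0471). The call under the block lay close to the threshold. In 9 further block fits chosen after the data were seen PGRP-SB1 was called in 4, with adjusted p values between 0.0198 and 0.120. The call was lost with quantile normalization (0.0606), among the upper 60% of genes (0.0688) and without pair 1 (0.120), pair 2 (0.0766) or pair 3 (0.0702), where the difference was -0.95, -0.85 and -1.13.

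**Figure D2:**
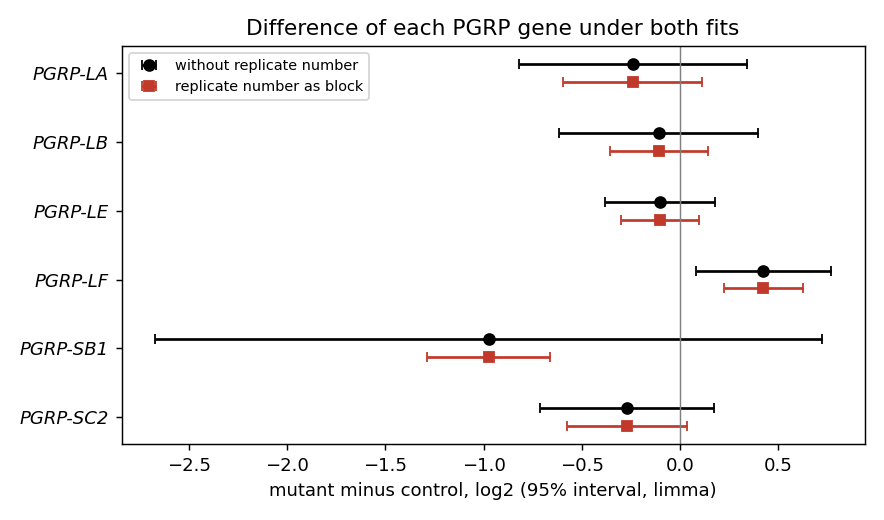
Mutant minus control difference of each measured PGRP gene in log2 units with its limma 95% interval, without the replicate number (black circles) and with it as a block (red squares). The interval of PGRP-SB1 runs from -2.67 to 0.72 without the block and from -1.29 to -0.66 with it, and that of PGRP-LF lies above 0 in both fits.

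PGRP-SB2 adjoins PGRP-SB1 and encodes a short form of the same subgroup. It had log2 values of 4.87, 4.98 and 4.64 in mutant arrays 1, 2 and 3, against 4.49, 4.91 and 4.66 in control arrays 1, 2 and 3. The groups overlapped and the difference, 0.14 with an SE of 0.14, was within the spread of the arrays (limma adjusted p = 0.998, and adjusted p = 0.69 with the block). The difference between these neighbours was not tested.

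PGRP-SC2 encodes another secreted amidase, known from the gut as a brake on the Imd pathway. Its log2 values were 11.14, 11.32 and 11.21 in mutant arrays 1, 2 and 3, against 11.12, 11.85 and 11.52 in control arrays 1, 2 and 3. The mutant arrays stayed within 0.18 of each other while the control arrays covered 0.72, and mutant and control were level for number 1, with a difference of 0.02. The overall difference was -0.27 (SE 0.18, 95% interval -0.71 to 0.17, limma adjusted p = 0.998, and adjusted p = 0.509 with the block). Leaving out control replicate 1 gave -0.45, and leaving out control replicate 2 gave -0.09. The genotypes differ by their alleles of Kdm4A on the same chromosome arm, 2R, which also holds pirk, Mtk and DptB, described below. Whether a place on this arm has a part in any of their values was not tested.

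The probe set shared by PGRP-SC1a and PGRP-SC1b, the near-identical amidase genes beside PGRP-SC2, is not among the 6 and was not tested. It averaged 10.66 ± 0.57 in the mutant and 10.86 ± 0.49 in the control (log2, SD, n = 3 each), with overlapping groups. Its means over the arrays numbered 1, 2 and 3 were 10.97, 11.14 and 10.16, and the arrays numbered 3 were the lowest of each genotype. A probe set shared by PGRP-LD and its neighbour Pmi was not tested either. That probe set averaged 4.82 ± 0.11 in the mutant and 4.85 ± 0.22 in the control, with overlapping groups.

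PGRP-LB is an amidase with secreted and intracellular forms that keeps the Imd response in the gut and the body cavity in check. Its log2 values were 8.47, 8.91 and 8.22 in mutant arrays 1, 2 and 3, against 8.75, 8.83 and 8.34 in control arrays 1, 2 and 3. The mutant was lower for numbers 1 and 3 and higher for number 2, and the groups overlapped. The difference was -0.11 (SE 0.21, 95% interval -0.61 to 0.40, limma adjusted p = 0.998), and it was 0.05 without mutant replicate 3.

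Among the receptors, PGRP-LE, which senses peptidoglycan fragments inside cells, was the measured member whose arrays varied least. Its log2 values were 8.85, 9.02 and 9.18 in mutant arrays 1, 2 and 3, against 8.98, 9.15 and 9.21 in control arrays 1, 2 and 3. The mutant array was lower for each number, with differences from -0.14 to -0.03, yet the groups overlapped. The difference was -0.10 (SE 0.12, limma adjusted p = 0.998, and adjusted p = 0.713 with the block), and the 95% interval under the block, -0.30 to 0.10, holds no change as large as that of PGRP-SB1.

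PGRP-LA and PGRP-LF flank the receptor gene PGRP-LC on 3L and had differences of opposite sign. PGRP-LF is a membrane protein without a signalling tail that binds PGRP-LC and holds the Imd pathway off when no bacteria are present. Its log2 values were 6.34, 6.40 and 6.73 in mutant arrays 1, 2 and 3, against 5.92, 6.03 and 6.25 in control arrays 1, 2 and 3. Each mutant array lay above each control array, which held in this direction for 4.11% of all genes and in either direction for 10.3%. The differences were 0.43, 0.36 and 0.49 for numbers 1, 2 and 3, and 14.5% of all genes were higher in the mutant for all 3 numbers. The overall difference was 0.43 with an SE of 0.14 and a 95% interval from 0.08 to 0.77. It did not pass over all genes (limma unadjusted p = 0.0221, adjusted p = 0.753), nor with the block (SE 0.08, adjusted p = 0.112).

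PGRP-LA, thought to promote the Imd response in epithelia such as the trachea and gut, had log2 values of 7.25, 7.28 and 7.00 in mutant arrays 1, 2 and 3, against 7.74, 7.65 and 6.85 in control arrays 1, 2 and 3. The mutant was lower for numbers 1 and 2, with differences of -0.49 and -0.37, and higher for number 3, by 0.15. The groups overlapped. The difference was -0.24 (SE 0.24, 95% interval -0.82 to 0.34, limma adjusted p = 0.998, and adjusted p = 0.618 with the block). Leaving out control replicate 3 gave -0.52, and leaving out control replicate 1 gave -0.08.

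Between the replicate numbers, with genotype in the fit, the family was again led by PGRP-SB1. Limma's F test over the 3 numbers called 1 of the 6 members, where 1.59% of all genes were called. At an unadjusted p under 0.05 there were 4 members, PGRP-LA, PGRP-LB, PGRP-LF and PGRP-SB1, where 22.5% of all genes passed.

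PGRP-SB1 averaged 8.46 over the arrays numbered 1, 8.29 over those numbered 2 and 6.49 over those numbered 3, the mean of 1 mutant and 1 control array each. The F test gave an adjusted p of 0.0246 (limma). Arrays numbered 3 were lower than arrays numbered 1 by 3.92-fold (log2 difference -1.97, SE 0.15, limma adjusted p = 0.0147). They were lower than arrays numbered 2 by 3.47-fold (-1.79, SE 0.15, limma adjusted p = 0.0254). Arrays numbered 2 and 1 differed by -0.18 (SE 0.15, limma adjusted p = 0.66). Of all genes, 3.35% were called lower in number 3 than in number 1, and 0.484% lower in number 3 than in number 2. Without control replicate 3 the F test of PGRP-SB1 missed the threshold (adjusted p = 0.0751), with a difference of -1.74 between numbers 3 and 1.

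The trachea marker list, with 6 of 7 genes measured, held btl, verm, serp, pio, Gasp and uif, and not trh. Its mean log2 values were 9.12, 8.96 and 8.40 in arrays numbered 1, 2 and 3. It was lowest in the same arrays as PGRP-SB1. The neuron list, with 4 of 6 genes measured, had 8.05, 8.18 and 8.71 and was highest there. Fat body and hemocyte lists, from tissues that make immune proteins, had 9.38, 9.53 and 9.46, and 8.69, 8.63 and 8.54. The midgut list, with 7 of 10 genes measured, had 12.95, 12.98 and 12.81, lowest in the arrays numbered 3. The muscle list, with 3 of 6 genes measured, had 10.63, 10.83 and 10.95, highest there. Whether a list follows the amount of its tissue was not tested. The part of these tissues, and of the wider actin gap in arrays numbered 1, in the values of PGRP-SB1 was not tested. Between the genotypes, the trachea, neuron, fat body, hemocyte, midgut and muscle lists differed by -0.08, 0.16, -0.03, 0.00, -0.08 and 0.12 on the log2 scale.

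**Figure D3:**
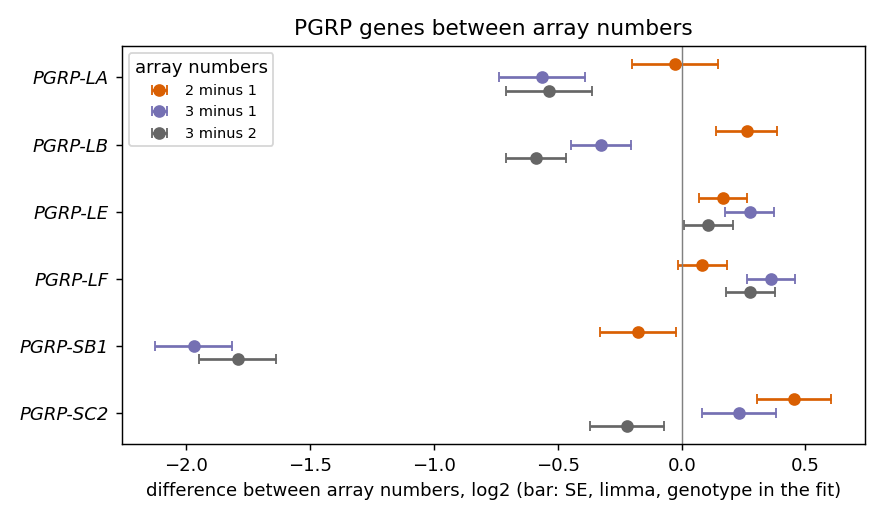
Difference between arrays of different replicate number for each measured PGRP gene in log2 units, with genotype in the limma fit and bars of 1 SE. PGRP-SB1 stands at -1.97 for numbers 3 minus 1 and -1.79 for 3 minus 2, and the other members lie between -0.59 and 0.45 in all 3 contrasts.

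The other members differed less between the numbers and did not pass. Arrays numbered 3 minus arrays numbered 1 gave -0.56 (SE 0.17) for PGRP-LA and -0.33 (SE 0.12) for PGRP-LB, with F test adjusted p values of 0.187 and 0.115 (limma). PGRP-LF and PGRP-LE had values of 0.36 (SE 0.10) and 0.27 (SE 0.10), with F test adjusted p values of 0.172 and 0.284. PGRP-SC2 had its highest mean in the arrays numbered 2, 0.45 above those numbered 1 (SE 0.15, F test adjusted p = 0.254). Amidase genes thus included the member with the widest spread over the 6 arrays, PGRP-SB1 with an SD of 1.12, and members with narrow spreads, PGRP-LB and PGRP-SC2 with SDs of 0.28 each.

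The Imd pathway carries the signal from PGRP-LC and PGRP-LE to the NF-kappaB factor Relish. Of 21 listed genes of this pathway 19 were measured, and limma called 0 of them between the genotypes, without the block or with it, where 0.159% and 0.818% of all genes were called. Without the block 3 had an unadjusted p under 0.05 and with it 4, where 5.27% and 11.2% of all genes did. Their median difference was -0.05, with 15 lower and 4 higher in the mutant, against 6205 lower and 5778 higher among all genes. Fadd, the adaptor between Imd and the caspase Dredd, had log2 values of 5.76, 5.93 and 5.65 in mutant arrays 1, 2 and 3, against 6.35, 6.47 and 6.41 in control arrays 1, 2 and 3. Its groups did not overlap, as in 10.3% of all genes, and its difference of -0.63 (SE 0.10) had a limma adjusted p of 0.112, or 0.0543 with the block. The deubiquitinase gene trbd and the kinase gene IKKbeta had differences of -0.25 (SE 0.08) and -0.22 (SE 0.09), also without overlap, and neither passed. These 3 were the Imd genes without overlap.

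pirk, which encodes an inhibitor that acts on PGRP-LC, had log2 values of 8.38, 8.89 and 7.63 in mutant arrays 1, 2 and 3, against 9.02, 8.88 and 8.06 in control arrays 1, 2 and 3. Like PGRP-SB1 it was lowest in the arrays numbered 3 of both genotypes, with a difference of -0.85 from number 1 (SE 0.17, limma adjusted p = 0.0451 for this contrast and 0.0774 for the F test). With a trended robust prior on all 6 arrays the F test of pirk passed (limma adjusted p = 0.0448). It passed without control replicate 2, mutant replicate 1 or mutant replicate 2. It did not pass without control replicate 1, control replicate 3 or mutant replicate 3. Each of these fits had 1 array for 1 number. The difference between numbers 3 and 1 was -1.07 without mutant replicate 1 and -0.64 without control replicate 1. Between the genotypes pirk differed by -0.35 (SE 0.38, limma adjusted p = 0.998).

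The Toll pathway receives its signal from PGRP-SA and PGRP-SD through a cascade of proteases. Of 21 listed genes 19 were measured, and limma called 0 of them between the genotypes, without the block or with it. The shares of all genes called were 0.159% and 0.818%. Without the block 1 had an unadjusted p under 0.05 and with it 2, close to the shares of all genes, 5.27% and 11.2%. The median difference was 0.00, with 9 higher and 10 lower in the mutant. SPE, the protease that activates the Toll ligand, had log2 values of 7.10, 7.52 and 6.79 in mutant arrays 1, 2 and 3, against 6.67, 6.83 and 6.11 in control arrays 1, 2 and 3. It was higher in the mutant for each number, and its difference of 0.60 (SE 0.25) did not pass (limma adjusted p = 0.935, and adjusted p = 0.0647 with the block). Dif, an NF-kappaB factor of this pathway, had a difference of 0.21 (SE 0.10) without overlap and did not pass.

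**Figure D4:**
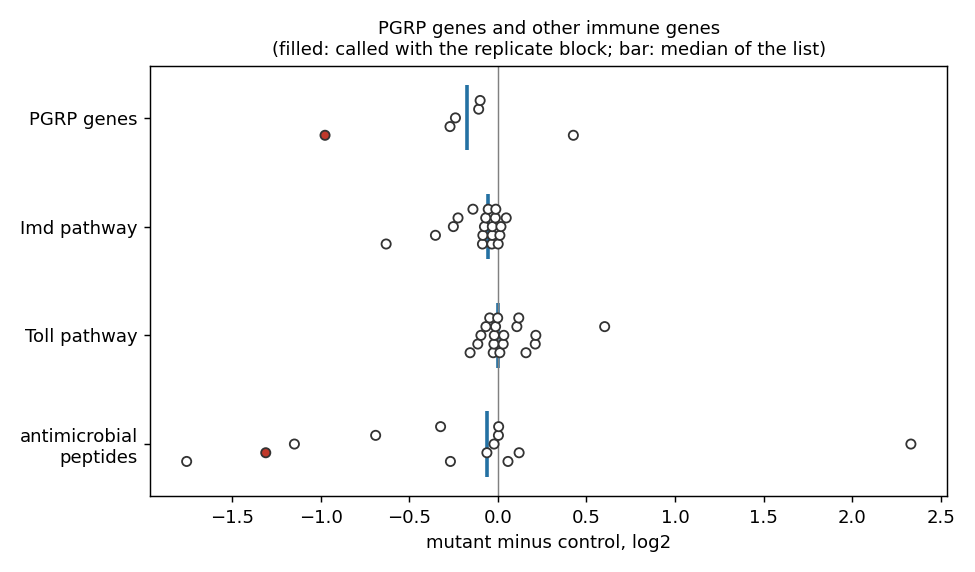
Mutant minus control difference in log2 units for the 6 measured PGRP genes and for 19 Imd pathway, 19 Toll pathway and 13 antimicrobial peptide genes, 1 point per gene, filled where limma called the gene with the replicate block, with a bar at the median of each list. PGRP-SB1 and Mtk are the filled points, and the medians are -0.17, -0.05, 0.00 and -0.06.

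Antimicrobial peptide genes include targets of both pathways, and 13 of 21 listed genes were measured. The measured genes included the drosomycin-like genes Drsl1 to Drsl6. AttA, AttB, AttC, CecA1, CecA2, CecC, DptA and Dro had no probe set naming the gene alone and were not analysed here. The median of the list therefore leaves them out. Between the genotypes limma called 0 of them without the block and 1 with it, Mtk, where 0.159% and 0.818% of all genes were called. Without the block 3 had an unadjusted p under 0.05 and with it 6, where 5.27% and 11.2% of all genes did. The median difference was -0.06, with 5 higher and 8 lower in the mutant. Mtk, which encodes metchnikowin, had log2 values of 9.35, 7.92 and 7.06 in mutant arrays 1, 2 and 3, against 10.54, 9.55 and 8.16 in control arrays 1, 2 and 3. The mutant array was the lower one for each number, with a difference of -1.31 (SE 0.76 without the block, limma adjusted p = 0.998, and SE 0.13 with it, adjusted p = 0.0232).

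DptB, a diptericin gene controlled mainly by the Imd pathway, had log2 values of 9.54, 8.02 and 7.69 in mutant arrays 1, 2 and 3, against 10.34, 9.68 and 8.67 in control arrays 1, 2 and 3. It too was lower in the mutant for each number, and its difference of -1.15 (SE 0.59) did not pass (limma adjusted p = 0.998, and adjusted p = 0.0647 with the block). Drs, the drosomycin gene that serves as a readout of Toll, ran the other way. It had log2 values of 8.16, 8.72 and 8.29 in mutant arrays 1, 2 and 3, against 6.02, 5.42 and 6.73 in control arrays 1, 2 and 3. Its groups did not overlap, as in 10.3% of all genes. The difference of 2.33 (SE 0.33) did not pass over all genes (limma adjusted p = 0.0795, and adjusted p = 0.0539 with the block). It passed without control replicate 3, with a difference of 2.67 (limma adjusted p = 0.0386). It did not pass without control replicate 1 (0.223) or 2 (0.264), nor without mutant replicate 1 (0.323), 2 (0.396) or 3 (0.219). The drosomycin-like genes Drsl2 and Drsl5 were lower in the mutant, also without overlap. Their differences were -1.76 (SE 0.59, limma adjusted p = 0.763) and -0.32 (SE 0.13, limma adjusted p = 0.914). Drs, Drsl2 and Drsl5 were the antimicrobial peptide genes without overlap, which 10.3% of all genes showed.

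**Figure D5:**
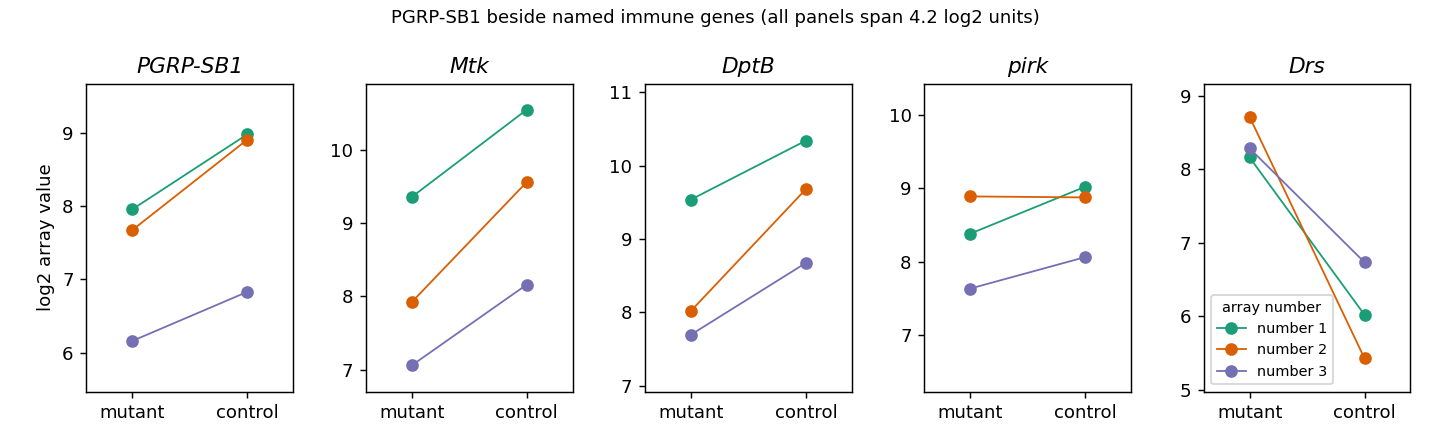
Log2 array values of PGRP-SB1, the antimicrobial peptide genes Mtk, DptB and Drs and the Imd inhibitor gene pirk, mutant left and control right, with a line joining the arrays of 1 replicate number. PGRP-SB1, Mtk and DptB are lower in the mutant for each number and lowest in the arrays numbered 3 of each genotype, and Drs is higher in the mutant for each number.

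Across the replicate numbers the F test called 2 of the 13 antimicrobial peptide genes, Mtk and DptB, and 0 of the 19 Imd and 0 of the 19 Toll pathway genes (limma), where 1.59% of all genes were called. At an unadjusted p under 0.05 there were 4, 1 and 5 genes of these lists, where 22.5% of all genes passed. Arrays numbered 3 minus arrays numbered 1 gave -2.34 for Mtk (SE 0.15, F test adjusted p = 0.0229) and -1.75 for DptB (SE 0.21, F test adjusted p = 0.0498). PGRP-SB1 and these 2 genes were thus lowest in the same arrays, but PGRP-SB1 had arrays 2 near arrays 1, while Mtk and DptB had differences of -1.21 and -1.09 between numbers 2 and 1 (not called). The call of DptB was lost without control replicate 3 (adjusted p = 0.269) and under 6 other alternatives. That of Mtk was lost without control replicate 3 (0.0656) or mutant replicate 3 (0.0545).

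For the 3 members with the widest spread over the 6 arrays, the genes of most similar pattern were sought by the root mean square difference of log2 values after each gene's mean was removed. Nearest to PGRP-SB1 were CG17780, at 0.13, Osi24, at 0.16, and CG13614, at 0.17. CG17780 had log2 values of 5.21, 4.84 and 3.31 in mutant arrays 1, 2 and 3. It had 6.39, 5.87 and 4.09 in control arrays 1, 2 and 3, and was again lowest in the arrays numbered 3. The value in mutant array 3 lay below the lower quartile of that array, 3.77. Nearest to PGRP-LA were Cat, which encodes catalase, at 0.06, CG13482, at 0.07, and CG5506, at 0.07. Nearest to PGRP-LF were the transcription factor gene btd, at 0.04, CG11638, at 0.06, and Desi, at 0.07. The values of btd ran from 3.79 to 4.54, below the array medians. The genes named here are the closest of 11982 genes each over 6 arrays, a description of these arrays alone.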

How the data were processed

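The authors deposited 1 log2 value for each probe set and array. They used RMA, per the submitters' processing notes, with no version stated; that the scale is log2 follows from the range of the values. Because RMA aligns the distributions of the arrays, a shift common to most genes would be hidden. Of 18952 probe sets, 183 controls were left out and 13647 name 1 gene in the 2016 probe table. The probe set with the highest mean was kept per gene, with no filter on low values, which left 11983 genes; 11894 matched RefSeq for names, arms and order. limma 3.58.1 in R 4.3.3 (lmFit, eBayes, two-sided) was run over all genes with Benjamini-Hochberg adjustment and calls at an adjusted p under 0.05, for genotype, and for replicate number by an F test with genotype in the fit. The number of arrays limits the precision.

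Deviations from group means correlated between same-numbered arrays at 0.684, 0.151 and 0.756, so numbers were taken to pair the arrays. Mutant 2 correlated more with control 1 (0.354). These correlations come from the same values that the block fit and the F test used. The titles call the arrays biological replicates, but the labels do not say whether these came from separate cultures. The p-values may therefore not measure the spread between separate cultures.

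The members and gene lists were chosen with earlier results of these data known. The rule for names took all measured members, PGRP-SB2, Kdm4A, up to 4 genes per list with the smallest p by genotype and by number, and the 3 nearest patterns of 3 members. In 10 simulated data sets of 11983 genes with 200 changed, noise was normal and independent between arrays. For the genotype fit, each number had the same effect in both genotypes, a pairing that the real arrays need not have. This fit recovered 65.4% of 2-fold and 93.6% of 4-fold changes without the block and 70.1% and 93.2% with it. It made 0.4 and 5.9 false calls on average. For the F test, the changes were placed in the arrays numbered 3, with no other difference between arrays but noise. The F test recovered 44.8% and 81.7%, with 2.8 false calls on average. These rates hold for the simulated settings alone. Alternatives were other normalizations, filters, probe set rules, priors, weights, the block and leaving out arrays. Plots were drawn with matplotlib 3.10.9.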

Additional observations from a re-analysis of the deposited data

How the results depend on the processing

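The count of PGRP genes called between the genotypes was 0 and became 1 with the replicate block, also with median centring, all probe sets, a trended robust prior or array weights added to it; leaving out any 1 array gave 0. By array number the count was 1, and 0 to 1 with 1 array left out. The count of Imd genes, 0, became 1 with array weights (Fadd) and was 0 with any 1 array left out. That of Toll genes was 0 under every alternative run. That of antimicrobial peptide genes became 1 with array weights (Drs) and 1 with the replicate block (Mtk), and 0 to 1 with 1 array left out. The 2 immune genes called by number became 1 with quantile normalization, the mean of probe sets or the upper 60% of genes, 3 with a trended robust prior (pirk added), and 0 to 4 with 1 array left out. With 1 array left out, PGRP-SB1 differed between genotypes by -1.68 to -0.42, PGRP-LB by -0.30 to 0.048 and PGRP-LE by -0.18 to -0.018. Between numbers 3 and 1, PGRP-LA then ranged from -0.86 to -0.27, PGRP-LB from -0.46 to -0.19 and PGRP-SC2 from 0.017 to 0.45, none of them called. GNBP3 ranged from -0.15 to 0.063 and AttD from -0.73 to 0.0035. GNBP3 did not pass in any of these, and AttD passed without mutant replicate 2 (adjusted p = 0.0474). Fits lacking 1 array leave the numbers unequal between genotypes. Among the genes named, the block added the calls of PGRP-SB1 and Mtk and changed no other. What made the calls change between these settings was not tested. Dim probe sets limit what the arrays can show.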
